A study of Mus musculus with 8 samples.

Results

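The IL-17 and IL-22 axis was followed in mouse tongue epithelium through 9 genes: the cytokine genes Il17a, Il17f and Il22, the IL-23 subunit gene Il23a, the receptor genes Il23r, Il17ra, Il17rc and Il1r1, and the chemokine gene Ccl20. These were chosen by name, as 9 of the 32285 genes in the single-cell count matrices. The rule itself uses no measured value, but the members and gene lists were chosen with earlier results of these data known. Whole tongue epithelium was dissociated, viable single cells were sorted and 3' droplet libraries were sequenced, 2 libraries for each of 4 groups, 15 days after induction. Every mouse carried Krt14-CreERT and LSL-rtTA, which together make the doxycycline-dependent activator in cells of the Krt14 lineage, the basal keratinocytes, and per the study's methods also a doxycycline-dependent H2B-GFP reporter. The N group carried no further transgene, E carried tetON_E6-E7, the oncogenes of human papillomavirus type 16, Y carried tetON_YAP1S127A, a constitutively active form of the transcriptional co-activator YAP, and EY carried both. All were littermates 8 to 16 weeks old that received tamoxifen in the tongue and a doxycycline diet, so N controls also for both drugs and for Cre. Because the driver is epithelial, values in T cells and myeloid cells describe cells that the transgenes do not target. Libraries are called N1, N2, E1, E2, Y1, Y2, EY1 and EY2 here, and a pair of values for a group gives the first library and then the second.

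IL-17A and IL-17F are secreted by gamma delta T cells and by type 17 subsets of alpha beta T cells, and they act on keratinocytes through a receptor built from IL-17RA and IL-17RC. That receptor recruits the adaptor Act1 and induces neutrophil chemoattractants, antimicrobial proteins and CCL20, the ligand that draws in cells with CCR6. IL-23, made of the p19 chain encoded by Il23a and the p40 chain encoded by Il12b, comes mostly from myeloid cells and sustains type 17 cells through IL-23R, with IL-1 acting beside it through the type 1 IL-1 receptor. IL-22 from the same lymphocytes acts on epithelium through its own receptor, and in the mouth this axis is known for defence against Candida.

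Of 42550 deposited cells, 25199 passed the filters, and the deposited libraries held 46483469 to 102427359 UMIs (unique molecular identifiers, counts of distinct transcripts). The immune share of the cells kept ran from 15.05% to 89.5% between libraries, and EY1 had 166 epithelial-like cells against 399 to 3974 in the others. The title of N2 carries 2 animal numbers, so that library may pool animals. Of 25117 distinct barcodes, 82 occurred in 2 or more libraries. With 2 libraries a group, every p-value below measures the spread between these libraries only. Transcripts of other cell types were common at a low level: a Krt5 UMI was found in 33.7% to 60.5% of cells with the T cell transcript Cd3e, and a Ptprc UMI in 0.679% to 4.40% of epithelial-like cells.

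The members divided between 3 compartments. T-cell-like clusters held 91.3% of the 2887 Il17a UMIs, 92.6% of the 1211 Il17f UMIs, 75.4% of the 1417 Il22 UMIs and 70.8% of the 432 Il23r UMIs. Monocyte- or macrophage-like cells held 58.1% of the 2623 Il23a UMIs, with 17.8% in epithelial-like and 15.6% in neutrophil-like cells. Epithelial-like cells held 95.8% of the 13806 Il17rc UMIs, 75.0% of the 3511 Il1r1 UMIs and 84.6% of the 1371 Ccl20 UMIs. Il17ra, the shared receptor chain, was spread more widely, with 44.2% of 7649 UMIs in monocyte- or macrophage-like, 19.7% in epithelial-like, 13.7% in T-cell-like and 10.7% in neutrophil-like cells. These shares also follow how many cells of each class were captured.

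**Figure D1:**
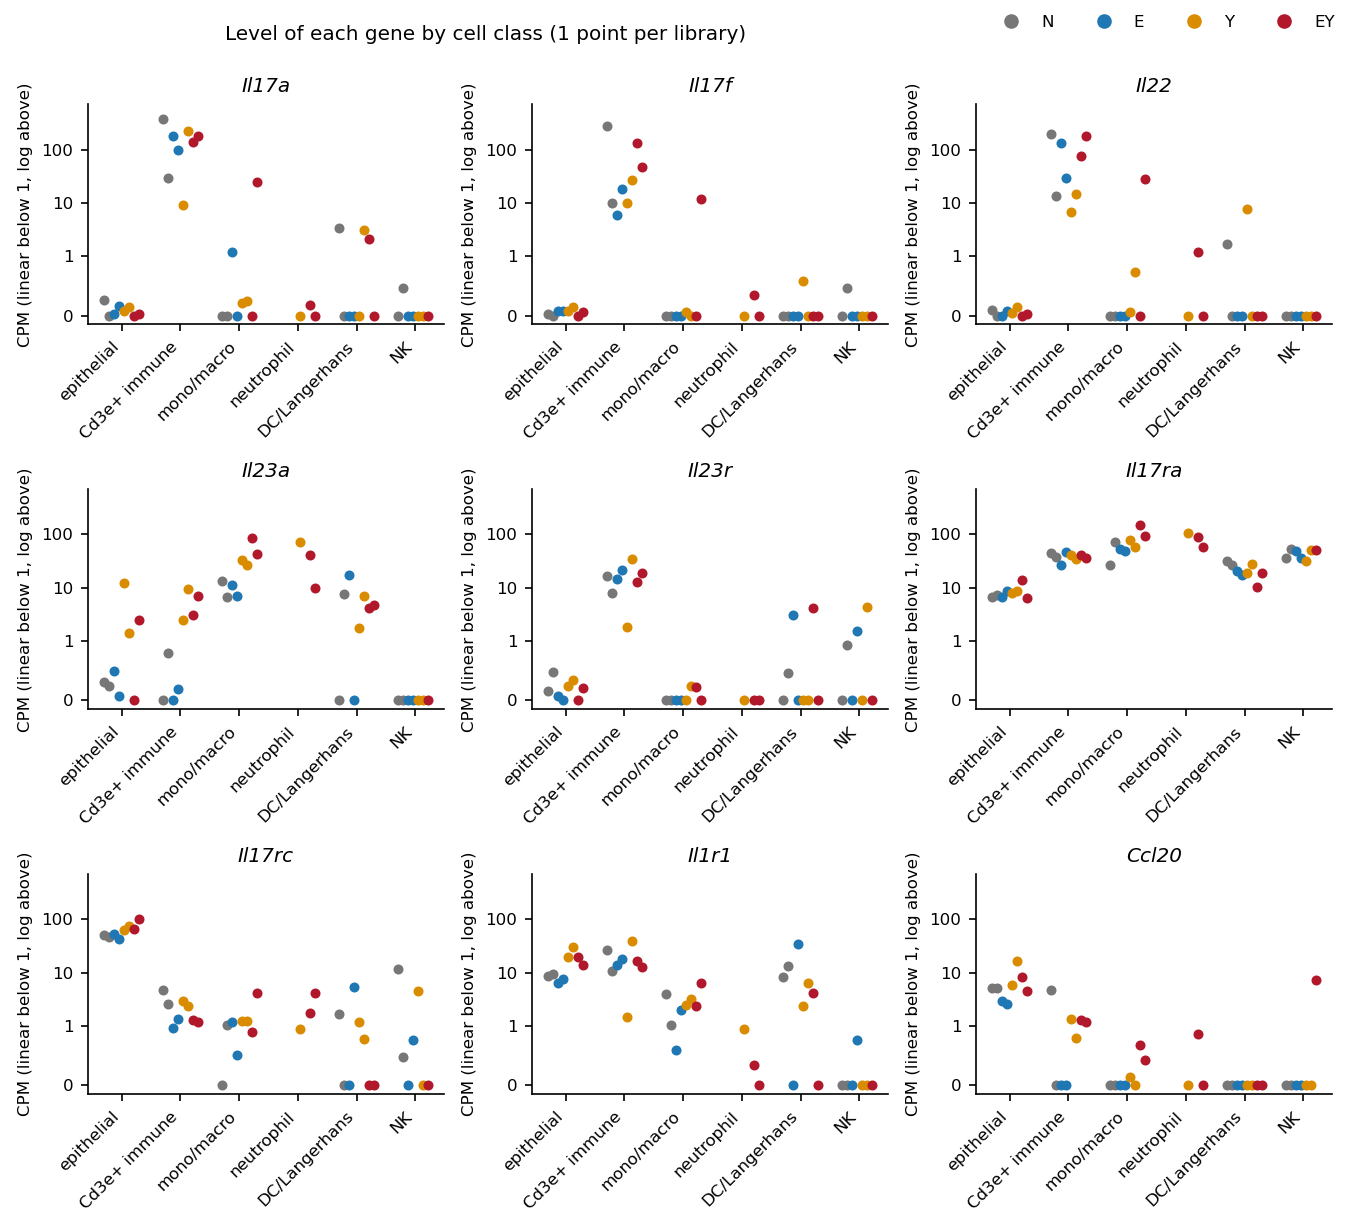
Level of each member in 6 cell classes, in CPM (UMIs of the gene scaled to a fixed total of UMIs of the class in a library), linear below 1 and logarithmic above; each point is 1 library with at least 20 cells of the class, coloured by group. Il17a, Il17f and Il22 are highest in T-cell-like cells, Il23a in myeloid classes and Il17rc in epithelial-like cells.

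Sources of IL-17 and IL-22 were examined in the 4806 immune cells with at least 1 Cd3e UMI, the transcript of a chain of the T cell receptor complex (200 to 1994 cells a library). Of these, 80.57% lay in T-cell-like clusters, 13.0% in unnamed clusters, 3.43% in NK-cell-like clusters and 2.02% in the monocyte- or macrophage-like class. An Il17a UMI was found in 292 of them (6.08%), an Il17f UMI in 172 and an Il22 UMI in 133. At least 1 of the 3 was found in 404 cells and all 3 in 45, of which 30 were in N1.

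The genes of IL-17A and IL-17F are neighbours on chromosome 1, Il17a at chr1:20730905-20734496 on the plus strand and Il17f at chr1:20777146-20790617 on the minus strand (GRCm38), 42649 bases apart. Their promoters are shown because Il17f was the gene most like Il17a in its pattern over cell classes, and each runs from 250 bases before to 50 bases after the RefSeq start (GRCm38.p6; chr1:20730655-20730954, plus, and chr1:20784221-20784520, minus). Capitals mark letters matching, on either strand, TGANTCA (AP-1) or the NF-kB motif, GGG and CC around 5 free bases.
Il17a: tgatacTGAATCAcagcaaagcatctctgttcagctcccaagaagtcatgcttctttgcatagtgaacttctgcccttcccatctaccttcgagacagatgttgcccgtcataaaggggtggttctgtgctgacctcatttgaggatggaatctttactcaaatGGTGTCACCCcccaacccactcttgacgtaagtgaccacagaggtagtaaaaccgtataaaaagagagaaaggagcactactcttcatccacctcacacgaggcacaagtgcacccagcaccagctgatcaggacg
Il17f: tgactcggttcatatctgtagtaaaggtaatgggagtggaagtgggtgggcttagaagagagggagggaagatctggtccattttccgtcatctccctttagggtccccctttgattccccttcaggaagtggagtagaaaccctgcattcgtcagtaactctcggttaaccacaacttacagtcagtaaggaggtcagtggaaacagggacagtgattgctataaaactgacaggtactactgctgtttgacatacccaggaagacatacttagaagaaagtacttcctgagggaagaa
Il17a held the AP-1 letters at -244 and the NF-kB letters at -86, counted from the start site, and Il17f held neither. Of 32851 promoters of the same length, 7.81% held the AP-1 letters and 50.8% the NF-kB letters, so a match is a description and not a site.

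Il17a had no common order of the groups in Cd3e-positive cells. Its level was 368 and 29.1 CPM in N, 181 and 99.5 in E, 9.25 and 226 in Y, and 140.0 and 181 in EY. Both the highest and the second lowest library belonged to N, and the Y libraries lay as far apart, so all groups overlapped. The N mean was 199 ± 240 CPM, that of E 140.1 ± 57.4, that of Y 118 ± 154 and that of EY 160.4 ± 28.9 (SD, n = 2). The YAP effect, libraries with against without active YAP in a model that also holds E6-E7, was -0.21 on the log2 scale (SE 0.887, adjusted p = 0.977, edgeR's quasi-likelihood test with Benjamini-Hochberg adjustment). For EY against N the log2 difference was -0.13 (SE 1.28, edgeR adjusted p = 0.992). In such summed values, fewer positive cells and less RNA per cell cannot be told apart. A few cells carried much of the RNA: the highest single cell gave 8.0% of the Il17a UMIs in N1, 12.2% in Y2, but 68.8% in E1 and 72.6% in Y1.

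Counting cells rather than UMIs gave the same picture for Il17a. The positive share was 22.9% and 3.504% in N, 5.24% and 7.20% in E, 0.602% and 17.6% in Y, and 6.54% and 9.0% in EY. In epithelial-like cells, which should lack the gene, the share was 0% to 0.382% at a median of 12661.5 to 23565 UMIs a cell, deeper than the 3027 to 7926 UMIs of the Cd3e-positive cells. With every cell thinned to 2000 UMIs the shares became 19.3% and 2.34% in N, 3.97% and 3.96% in E, 0.402% and 14.5% in Y, and 4.40% and 7.58% in EY. The difference with minus without active YAP was -0.666 percentage points, from 6.71 ± 5.96 to 7.38 ± 7.96 (SD, n = 4 each; p = 0.914 when all 70 labellings were enumerated in a two-sided exact permutation test), and it was 3.29 points without N1. Across the 6 transcripts tested in this way for both transgenes, the smallest unadjusted p from the exact permutation test was 0.429 and every adjusted p was 1, where 0.0286 was the smallest p the design allowed.

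**Figure D2:**
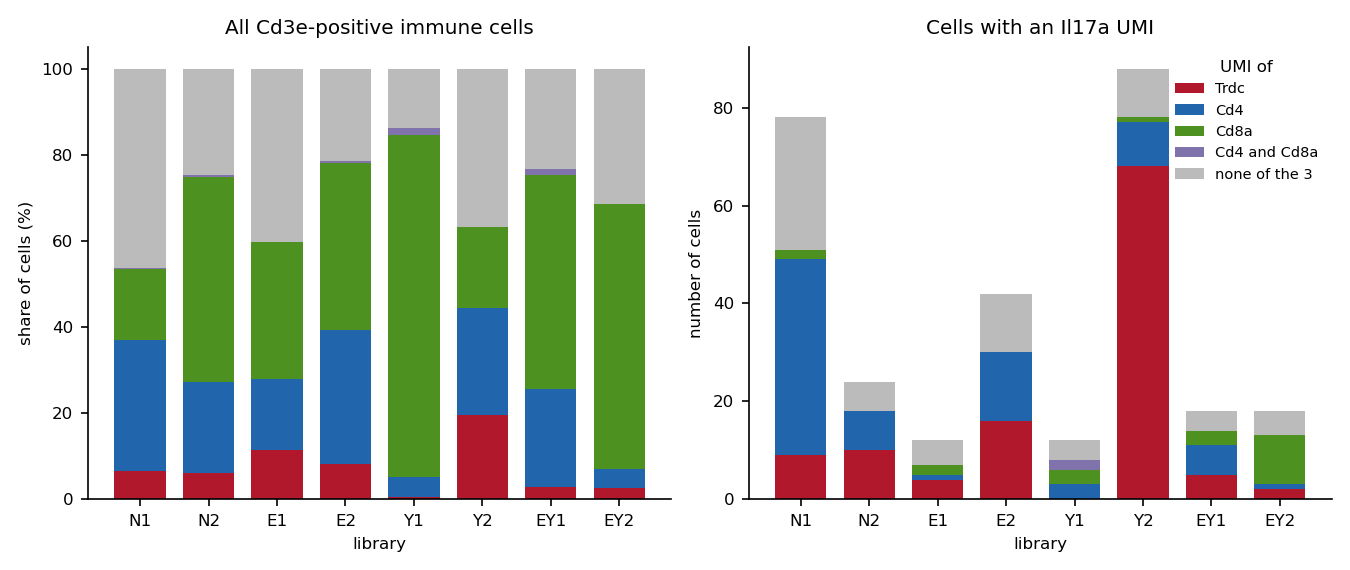
Left, share of Cd3e-positive cells (%) in each receptor gate, stacked for each of the 8 libraries; right, number of Il17a-positive cells in the same gates. Cells with Cd8a make up 79.2% of the Cd3e-positive cells of Y1 and 61.5% of those of EY2, and the Il17a-positive cells of Y2 are mostly cells with Trdc.

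Cells with Trdc, the constant region of the T cell receptor delta chain and the mark of gamma delta T cells, held Il17a most often. Over all libraries 114 of 259 Trdc-positive cells were Il17a-positive (44.0%, exact 95% binomial interval 37.9% to 50.3%, counting error only), against 82 of 756 Trdc-negative cells with Cd4 alone (10.8%), 21 of 2615 with Cd8a alone (0.803%) and 73 of 1131 with none of the 3 (6.45%). A cell without a UMI of a receptor transcript is not shown to lack it, so the last gate can hold cells of each kind. The Trdc share was the highest of these 4 gates in 7 of 8 libraries, with 9 of 22 cells in N1, 10 of 42 in N2, 4 of 26 in E1, 16 of 48 in E2, 68 of 97 in Y2, 5 of 8 in EY1 and 2 of 5 in EY2. Y1 was the exception, with 0 of 11. With each library weighted alike the share was 35.8% ± 23.2 in Trdc, 10.7% ± 11.6 in Cd4 and 2.24% ± 2.73 in Cd8a cells (SD, n = 8).

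The gate that gave most Il17a-positive cells differed between libraries. In N1, 40 of the 78 were in the Cd4 gate, where 38.5% of cells were positive, against 2.63% to 11.1% in the other libraries. In Y2, 77.3% were Trdc-positive and these cells held 87.0% of that library's Il17a UMIs. In EY2, 10 of the 18 were Cd8a cells (8.13% of that gate), while the Cd8a gate of the other 7 libraries gave 0 to 3 positive cells. The Trdc share of all Cd3e-positive cells was itself 6.45% and 6.13% in N, 11.4% and 8.23% in E, 0.552% and 19.4% in Y, and 2.91% and 2.5% in EY. Y1 and Y2 stood at opposite ends. With every library kept, no thinned share, that of Trdc among them, had an exact permutation p under 0.429. Without Y2 the difference in the thinned Trdc share with minus without active YAP was -5.36 percentage points. Its exact permutation p was 0.0286, the smallest possible with 35 labellings (adjusted p = 0.343). Y2 was the only active YAP library above those without it, so leaving it out fixes this p, and nothing is concluded from it.

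Il17f, whose product pairs with IL-17A or with itself, was highest in N1. It measured 276 and 10.0 CPM in N, 5.83 and 18.6 in E, 10.0 and 27.2 in Y, and 135 and 46.1 in EY. The groups overlapped again, and the YAP effect was -0.18 on the log2 scale (SE 1.53, edgeR adjusted p = 0.991). Unlike Il17a it was not found most often in Trdc cells: 24 of 259 Trdc cells (9.27%) and 73 of 756 Cd4 cells (9.66%) were positive, 43 of the latter in N1. The Cd4 share exceeded the Trdc share in 4 libraries, the reverse held in 3, and both were 0 in EY2. In EY2 and Y1 a single cell gave 71.8% and 67.2% of the Il17f UMIs.

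Il22 was found mostly outside Trdc cells. Its level was 197 and 13.2 CPM in N, 133 and 28.8 in E, 6.79 and 14.8 in Y, and 74.6 and 181 in EY. The groups overlapped, and the highest single cell gave 86.1% of the UMIs in E1 and 74.2% in N2. The YAP effect was -1.11 (SE 1.12, edgeR adjusted p = 0.771) and the E6-E7 effect 1.57 (SE 1.12, edgeR adjusted p = 0.906), both on the log2 scale. A UMI was found in 61 of 756 Cd4 cells (8.07%), 9 of 259 Trdc cells (3.47%) and 11 of 2615 Cd8a cells (0.421%), and the Cd4 share was above the Trdc share in 5 of 8 libraries. The near-identical gene Iltifb lies 79581 bases from Il22 and held 92 UMIs, so reads may be split between them. Unnamed clusters held 16.5% of all Il22 UMIs, with 152 of them in 1 cell.

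The 3 cytokines overlapped in part of the cells. Of the Il17a-positive Cd3e-positive cells, 38.4% held Il17f and 20.9% held Il22, against 1.33% and 1.60% of the Il17a-negative cells. The overlap with Il17f ran from 19.3% in Y2 to 73.1% in N1. Receptor and type 17 transcripts were likewise more frequent in Il17a-positive cells, although these were shallower (median 3940 against 5649 UMIs): Il23r was found in 26.0% against 3.90%, Il1r1 in 34.9% against 3.39%, and Ccr6 in 35.3% against 12.4%. Transcripts of other programmes were rarer, with Ifng, the type 1 cytokine, in 9.59% against 46.6% and Gzmb, a cytotoxic granule protease, in 14.4% against 50.3%. These shares pool the cells of all libraries. N1 and Y2 gave 78 and 88 of the 292 Il17a-positive cells, whereas Y1 gave 12 of them and 1994 of all 4806 cells. Gzmb was 985 CPM in Y1, 177 in N1 and 145 in Y2, and Ifng 411, 201 and 104. Differences between libraries thus enter each contrast, and their part was not tested. Among Il22-positive cells 45.9% held Il17a, 46.6% Cd4 and 43.6% Ccr6, and 6.77% held Trdc. In immune cells without a Cd3e UMI, 51 held Il17a, and 46 of those had a UMI of another T cell receptor transcript. Across 55 sums of a class in a library (9 classes, sharing libraries and depth), the genes most like Il17a by Pearson r of log2(CPM + 1) were Il17f (0.919), Il22 (0.902), Ermn (0.885), Slamf1 (0.873) and Tctex1d1 (0.869).

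Il23r, the specific chain of the IL-23 receptor, was found in Trdc cells of every library. It was found in 94 of 259 Trdc cells (36.3%), 73 of 756 Cd4 cells (9.66%) and 10 of 2615 Cd8a cells (0.382%). Its share in Trdc cells ran from 20% to 62.5% of a library, including 3 of the 11 cells of Y1 in which Il17a was not found, and was above the Cd4 share in 7 of 8 libraries, with EY2 the exception at 1 of 5 against 2 of 9. Its level in Cd3e-positive cells was 16.7 and 7.82 CPM in N, 14.6 and 21.6 in E, 1.86 and 34.4 in Y, and 13.1 and 18.9 in EY. Y held the lowest and the highest library, as for the Trdc share, and the YAP effect was 0.17 (log2, SE 0.722, edgeR adjusted p = 0.977). Il1r1 in these cells followed the same order of libraries at both ends, 1.49 CPM in Y1 and 38.7 in Y2, with a YAP effect of 0.01 (log2, SE 0.770, edgeR adjusted p = 0.998).

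None of the 7 members tested in Cd3e-positive cells was called for the YAP effect by edgeR (1 at an unadjusted p under 0.05, 1 called by DESeq2), where 1.37% of all genes were called. The same held for the E6-E7 effect (0 unadjusted, 0 by DESeq2, 0% of all genes) and EY against N (1 unadjusted, 0 by DESeq2, 0.157% of all genes). The member behind the DESeq2 call was Il23a, at 0 and 0.802 CPM in N, 0 and 0.193 in E, 2.46 and 9.59 in Y, and 3.05 and 7.09 in EY. Its groups with and without active YAP did not overlap, but edgeR gave an adjusted p of 0.0710 (log2 3.62, SE 0.803). Monocyte or macrophage markers summed to 899 to 1780 CPM in the same cells over all groups. The 10 neutrophil markers summed there to 17.5 to 154 CPM without active YAP and 27.6 to 9932 CPM with it. The part of either marker set in the Il23a values was not tested. Of 26 tested genes of the type 17 lymphocyte programme, such as Ccr6, Maf and Blk, edgeR called 0 for YAP (4 unadjusted), 0 for E6-E7 (1) and 0 for EY against N (2), with median log2 differences of -0.35, -0.38 and -0.83. Of 12 tested genes of other T cell programmes, 0 were called in each of these comparisons (3, 1 and 3 unadjusted).

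Il23a, on the minus strand at chr10:128296139-128298752, encodes the chain that makes IL-23 distinct from IL-12, and in monocyte- or macrophage-like cells it was higher with active YAP. Its level was 13.2 and 6.73 CPM in N, 11.2 and 7.1 in E, 33.3 and 27.2 in Y, and 85.2 and 43.2 in EY. All 4 libraries with active YAP lay above all 4 without, at 47.2 ± 26.2 against 9.56 ± 3.17 CPM (SD, n = 4). The YAP effect was 2.58 on the log2 scale, a 5.97-fold rise (SE 0.380, edgeR adjusted p = 0.0256), and EY against N was 3.24, a 9.43-fold rise (SE 0.447, edgeR adjusted p = 0.0137). These comparisons share the N and EY libraries. The E6-E7 effect was 0.97 (log2, edgeR adjusted p = 0.332) and the interaction of the transgenes 1.38 (edgeR adjusted p = 0.422). Of 3 members tested in this class, Il23a was the 1 called for YAP (1.21% of all genes called) and the 1 called for EY against N (6.63%), and 0 were called for E6-E7 (1 unadjusted, 0 by DESeq2, 0% of all genes). The YAP call was lost without N1 (adjusted p = 0.0537), E1 (0.0913), E2 (0.110) or Y1 (0.0830), and the EY call without N1 (0.0743) or N2 (0.0975), while the log2 difference stayed between 2.19 and 2.83 and between 2.62 and 3.65.

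**Figure D3:**
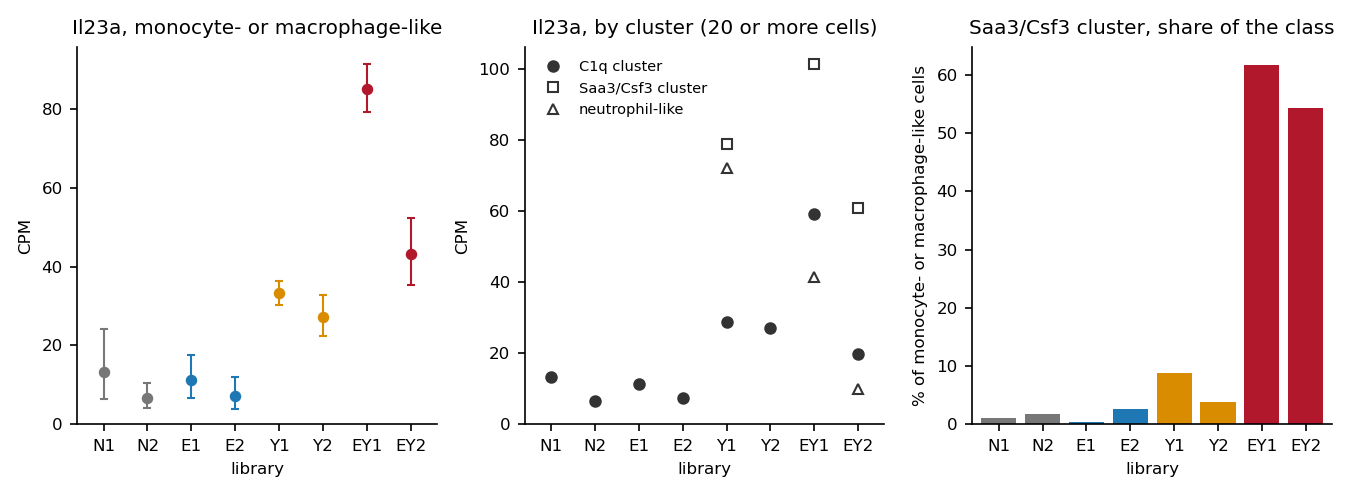
Il23a in CPM per library in monocyte- or macrophage-like cells with exact 95% Poisson intervals (counting error only), then by cluster (libraries with at least 20 cells), and the share of the class in the Saa3 and Csf3 cluster (%). The 4 libraries with active YAP sit between 27.2 and 85.2 CPM and the 4 others between 6.73 and 13.2 CPM.

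The class was made of a cluster led by C1q genes, which mark resident macrophages, and a cluster led by Csf3, Saa3 and Vcan. The second held 1.08% and 1.80% of the class in N, 0.389% and 2.56% in E, 8.78% and 3.73% in Y, but 61.8% and 54.3% in EY. Il23a in that cluster was 78.8 CPM in Y1, 101 in EY1 and 60.8 in EY2, the libraries with at least 20 such cells. Within the C1q cluster alone it was 13.3 and 6.50 CPM in N, 11.2 and 7.30 in E, 28.8 and 26.9 in Y, and 59.2 and 19.6 in EY. The libraries with active YAP also lay above the others within the C1q cluster, but on few counts. Each library without active YAP held 10 to 19 Il23a UMIs there, and EY2 held 20. In E1 1 cell gave 15 of 19 UMIs and in E2 1 cell gave 9 of 14. The part of cluster make-up in the difference over the class was not tested. The 10 neutrophil markers, S100a8 and S100a9 among them, moved with it, at a sum of 140 to 386 CPM in the class without active YAP and 383 to 34274 with it, and Ly6g and Ngp were at 0 without it. In the neutrophil-like cells themselves Il23a was 72.2 CPM in Y1, 41.3 in EY1 and 9.93 in EY2, and the part of neutrophil RNA in the class was not tested.

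Il17ra in monocyte- or macrophage-like cells was 26.4 and 71.5 CPM in N, 53.7 and 49.2 in E, 79.2 and 57.4 in Y, and 151 and 93.1 in EY. It was highest in EY, but the YAP effect of 1.03 on the log2 scale had an edgeR adjusted p of 0.151 and EY against N, 1.55 (SE 0.403), one of 0.0555. EY against N was called by DESeq2, and by edgeR without Y1 (adjusted p = 0.0470) or Y2 (0.0463); the YAP effect was called without N2 (0.0273). Il12b, the partner chain of Il23a, stayed between 0 and 16.7 CPM in this class. Of 10 genes of IL-23 and type 17 inducing cytokines, edgeR called 0 for YAP (5 unadjusted; 0.889% of all genes rose) and 3 for EY against N, all higher (4.01% of all genes rose): Il1a, a ligand of the type 1 IL-1 receptor (log2 3.93, adjusted p = 0.0137), Il12a (4.04, 0.0244) and Il1b (1.31, 0.0248). Il1a measured 76.6 and 53.1 CPM in N, 49.0 and 55.8 in E, 199 and 73.0 in Y, and 881 and 668 in EY, and it is 1 of the genes that lead the Csf3 and Saa3 cluster. Il1b was 3223 and 4374 CPM in N against 8189 and 6883 in EY. In dendritic- or Langerhans-like cells Il12b was higher, 13.3 to 251 CPM, Il23a lay between 0 and 17.1 CPM and was too low to test. The 1 member tested there, Il17ra, was not called for YAP, E6-E7 or EY against N by edgeR (unadjusted only for E6-E7) or by DESeq2, and 0 of 6 such cytokines were called by edgeR for YAP, E6-E7 or EY against N (2, 1 and 1 unadjusted; 2.83%, 0.123% and 2.96% of all genes called).

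The epithelial receptors are shown with the promoters of the pair that rose with active YAP, Il17rc (chr6:113471427-113483140, plus strand) and Il1r1 (chr1:40225080-40317257, plus strand). The windows are chr6:113471205-113471504 and chr1:40266336-40266635 of GRCm38.p6, the latter at the second RefSeq start of Il1r1. Capitals mark GGAATG, the motif of the TEAD factors through which YAP acts, or the same NF-kB letters, on either strand.
Il17rc: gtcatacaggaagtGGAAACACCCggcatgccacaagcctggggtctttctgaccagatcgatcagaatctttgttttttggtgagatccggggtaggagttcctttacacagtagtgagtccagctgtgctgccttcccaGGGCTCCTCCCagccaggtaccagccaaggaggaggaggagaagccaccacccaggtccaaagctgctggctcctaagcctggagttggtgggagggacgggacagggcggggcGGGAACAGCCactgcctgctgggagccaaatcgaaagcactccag
Il1r1: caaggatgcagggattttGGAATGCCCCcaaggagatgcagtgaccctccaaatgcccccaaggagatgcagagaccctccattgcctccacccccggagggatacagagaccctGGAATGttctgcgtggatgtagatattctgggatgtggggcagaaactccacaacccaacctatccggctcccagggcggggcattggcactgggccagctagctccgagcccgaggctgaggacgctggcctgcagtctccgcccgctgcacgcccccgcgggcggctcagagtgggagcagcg
The Il1r1 window held the TEAD letters at -232 and -135, the first overlapping an NF-kB match, and the Il17rc window held 4 NF-kB matches, at -236, -109, -108 and 6, of which the middle pair overlap, and no TEAD letters. Of all promoters 14.7% held the TEAD letters and 50.8% the NF-kB letters, and the first Il1r1 start held none of the motifs. Promoter sequences were matched for 7 of the 9 members.

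Il17rc, the receptor chain that gives epithelium its response to IL-17A and IL-17F, was higher in epithelial-like cells with active YAP. It measured 50.6 and 46.5 CPM in N, 52.9 and 42.5 in E, 63.0 and 73.5 in Y, and 64.9 and 99.1 in EY. All 4 libraries with active YAP lay above all 4 without, at 75.2 ± 16.6 against 48.1 ± 4.57 CPM (SD, n = 4). The YAP effect was 0.68 on the log2 scale, or 1.60-fold (SE 0.169, edgeR adjusted p = 0.0373), and EY against N was 0.79 (SE 0.223, edgeR adjusted p = 0.0401). Y against N, which shares N with that comparison, was 0.47 (edgeR adjusted p = 0.417), E against N -0.10 (adjusted p = 1) and the interaction 0.43 (adjusted p = 0.573). The calls sat near the threshold. Without 1 library the YAP effect was 0.48 to 0.77 and was called in 2 of 8 cases; its adjusted p rose to 0.0650 or 0.0752 with N1 or N2 left out, to 0.101 or 0.109 with E1 or E2 left out, to 0.0958 without Y2 and to 0.0557 without EY1. EY against N was 0.39 to 1.08 and was called only without EY1, with adjusted p of 0.155 or 0.173 with N1 or N2 left out, 0.0562 or 0.0603 with E1 or E2, 0.0627 or 0.0647 with Y1 or Y2, and 0.253 without EY2.

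Within epithelial clusters the same order of Il17rc held in some and not in others. In the cluster led by Cxcl10 and Ifit1 it was 43.6 to 51.7 CPM without active YAP and 71.4, 67.2 and 82.1 in Y1, Y2 and EY2. In the proliferating cluster led by Nusap1 and Mxd3 it was 29.7 to 44.6 without and 47.7 and 52.5 in Y, and in the Krt13 cluster 63.1 to 88.6 against 111.0 and 103.5. In the cluster led by Hoxc13 and Krt24 it was 29.5 to 45.3 against 47.7 and 59.5. The clusters led by Rora and by Lhx6 overlapped between groups. A cluster led by Crct1, Il24 and Klk12 held 1968 of the 2051 epithelial-like cells of EY2 and 114 of the 166 of EY1, with Il17rc at 99.6 and 51.6 CPM there. In the same cluster Il17rc was 62.0 CPM in the 28 cells of E1, 81.0 in Y1 and 82.5 in Y2, so E1 lay above EY1 and the groups overlapped. Because most EY cells lay in this cluster, group and cluster cannot be told apart in EY.

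**Figure D4:**
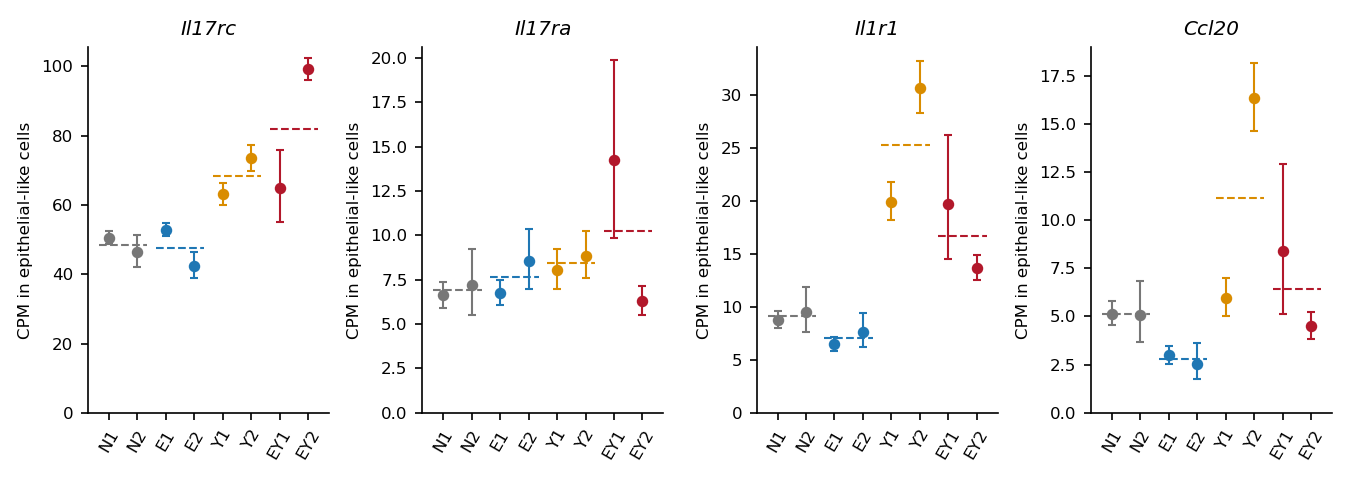
CPM of Il17rc, Il17ra, Il1r1 and Ccl20 in epithelial-like cells for each library, with exact 95% Poisson intervals (counting error only) and dashed lines at the group means. Il17rc and Il1r1 are higher in all 4 libraries with active YAP than in the 4 without, whereas Il17ra and Ccl20 overlap.

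Il17ra, the chain shared by the IL-17 receptors, showed no such order in epithelial-like cells. Its level was 6.61 and 7.19 CPM in N, 6.76 and 8.55 in E, 8.04 and 8.84 in Y, and 14.2 and 6.31 in EY. EY held both the highest and the lowest library, and the YAP effect was 0.33 (log2, SE 0.243, edgeR adjusted p = 0.357). Both chains were found together in 4.5% and 9.27% of epithelial-like cells in N, 4.38% and 11.0% in E, 9.41% and 10.8% in Y, and 12.6% and 8.44% in EY, where the median depth ran from 12661.5 to 23565 UMIs. Thinned to 2000 UMIs a cell, this joint share was 0% to 0.304% in every library, too low to compare, while Il17rc alone was found in 8.94% and 10.0% of cells in N, 9.31% and 8.12% in E, 12.5% and 12.9% in Y, and 9.09% and 16.5% in EY.

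Il1r1, the signalling receptor for IL-1 alpha and IL-1 beta, rose by more than Il17rc. It measured 8.76 and 9.55 CPM in N, 6.44 and 7.65 in E, 19.9 and 30.6 in Y, and 19.7 and 13.6 in EY. The groups with and without active YAP did not overlap, at 21.0 ± 7.07 against 8.10 ± 1.3 CPM (SD, n = 4). The YAP effect was 1.37 on the log2 scale, or 2.59-fold (SE 0.186, edgeR adjusted p = 0.00412), and it kept its call without each library in turn (1.22 to 1.48, 8 of 8) and under 8 of 8 other settings. Y against N was 1.44 (SE 0.263, edgeR adjusted p = 0.0532) and EY against N 0.83 (SE 0.273, edgeR adjusted p = 0.0603), both called by DESeq2, and Y against N also by edgeR without Y1 (0.0409). The E6-E7 effect was -0.53 (edgeR adjusted p = 0.345). Within clusters, Il1r1 was 5.92 to 7.24 CPM without active YAP and 18.4 and 19.9 in Y1 and Y2 in the proliferating cluster, 7.596 to 10.4 against 14.0 and 20.4 in the Rora cluster, and 6.37 to 12.1 against 13.7 and 13.8 in the Lhx6 cluster. In the Krt13 cluster it was 4.84 to 13.1 without and 13.4 and 13.1 in Y1 and Y2, which all but met. The groups overlapped in the Cxcl10 cluster, at 6.76 to 9.47 without and 17.8, 8.71 and 6.84 in Y1, Y2 and EY2, and in the cluster led by Hoxc13 and Krt24, at 4.02 to 9.45 without and 5.30 and 5.10 in Y1 and Y2. In the cluster led by Crct1, Il24 and Klk12, Il1r1 was 0 CPM in the 28 cells of E1. It was 16.4 and 41.3 CPM there in Y, and 22.1 and 13.7 in EY. Most EY cells lay in that cluster, so group and cluster cannot be told apart in EY.

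Ccl20 reached its highest level in Y2. Its level in epithelial-like cells was 5.15 and 5.07 CPM in N, 2.98 and 2.55 in E, 5.94 and 16.3 in Y, and 8.37 and 4.5 in EY. The groups with and without active YAP overlapped, since EY2 lay below both N libraries. The YAP effect was 1.13 on the log2 scale (SE 0.326, edgeR adjusted p = 0.0546), called by DESeq2, and by edgeR without Y1 (adjusted p = 0.0121), and the E6-E7 effect was -0.91 (edgeR adjusted p = 0.352). Few cells carried it: 1 cell of Y2 held 57 UMIs, and in the Rora cluster of Y2, where the level was 87.5 CPM, 1 cell held 30. The genes most like Ccl20 over the 55 class sums were Ovol2 (r = 0.907), Nipal2 (0.866), Vangl1 (0.861), Fabp6 (0.857) and Rbms3 (0.855), again as a description of sums that share libraries.

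Il23a was also counted in epithelial-like cells, where 1 cell decided its level in Y1. It was 0.304 and 0.236 CPM in N, 0.497 and 0.0822 in E, 12.1 and 1.42 in Y, and 0 and 2.50 in EY. In Y1, 264 of 300 UMIs (88%) came from 1 cell with 25159 UMIs, no Ptprc UMI, 19 Krt14 UMIs and 2 Krt5 UMIs, and without it the level was 1.46 CPM; the next of the 21 positive cells held 8 UMIs. The YAP effect of 3.47 (log2, SE 0.938, edgeR adjusted p = 0.0461) kept its call without EY1 but not without any other library, with an adjusted p of 0.111 (N1), 0.0980 (N2), 0.0559 (E1), 0.0947 (E2), 0.0594 (Y1), 0.0501 (Y2) and 0.130 (EY2).

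In all, 3 of 5 members tested in epithelial-like cells were called for the YAP effect, all higher (Il17rc, Il1r1 and Il23a), where 12.3% of all genes were called. For EY against N 1 of 5 was called, with 24.5% of all genes. Y against N gave 0 of 5 by edgeR (3 unadjusted, 2 by DESeq2) with 1.2% of all genes. E against N gave 0 of 5 (0 unadjusted, 0 by DESeq2) with 0.313%, and the E6-E7 effect 0 of 5 (2 unadjusted, 0 by DESeq2) with 0.536%. The share of all genes called for EY against N is near that of the members, and nothing particular to them can be read from it.

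Beyond the receptors, 2 of 16 tested genes of the IL-17 signalling chain rose with active YAP and 0 fell, where 12.3% of all genes were called and 7.08% rose, so the share called in the chain was near that of all genes. The median log2 difference was 0.19 against -0.03 over all genes. Il17re, which pairs with Il17ra in the receptor for IL-17C, was 17.6 and 19.9 CPM in N, 19.3 and 21.9 in E, 36.1 and 38.8 in Y, and 25.5 and 27.2 in EY. Its groups with and without active YAP did not overlap (log2 0.72, SE 0.149, edgeR adjusted p = 0.0205). The other was Tnfaip3, an inhibitor of NF-kB signalling (1.19, edgeR adjusted p = 0.0253), named after its values were seen. For EY against N, with 24.5% of all genes called, the 1 call of 16 was a fall, of Tab2, an adaptor of the TAK1 kinase (log2 -0.57, edgeR adjusted p = 0.0364).

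Genes known to respond to IL-17 in keratinocytes were followed as a list chosen with earlier results of these data known. It held 22 genes, of which 17 could be tested. Of these, 10 rose and 0 fell for the YAP effect, in which 7.08% of all genes rose, with a median log2 difference of 3.78 against -0.03 over all genes. For EY against N 13 rose (12% of all genes), with a median of 5.17, or 5.05 with the genes at 0 in N set at their bound. Y against N gave 3 (1.02% of all genes; Lcn2, Defb14 and Slpi), the E6-E7 effect 2 (0.529% of all genes; Csf3 and Il19), and E against N 0 by edgeR (3 unadjusted). Defb14, Csf3 and Il19 lay below 20 CPM and were named after their values were seen. Csf3 was 0 CPM in each N library, 0.0368 and 0.0822 in E, 0.242 and 0.0489 in Y, and 2.51 and 9.32 in EY. Il19 was 0.142 and 0 CPM in N, 0.737 and 0.247 in E, 0.323 and 0.342 in Y, and 5.86 and 8.36 in EY. Slpi, a protease inhibitor with antimicrobial activity, measured 4.62 and 1.53 CPM in N, 18.6 and 4.28 in E, 95.9 and 179 in Y, and 274 and 629 in EY. Its YAP effect was 5.34 (log2, SE 0.554, edgeR adjusted p = 0.00186). Lcn2, which sequesters bacterial siderophores, was 0.852 and 0.354 CPM in N, 0.295 and 0.329 in E, 3.999 and 3.86 in Y, and 47.7 and 45.4 in EY (YAP effect 4.78, edgeR adjusted p = 0.0164). Il24, a cytokine of the IL-20 family, was below 3 CPM in the 6 libraries of N, E and Y and 46.0 and 54.2 CPM in EY (EY against N 7.21, edgeR adjusted p = 0.00831).

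**Figure D5:**
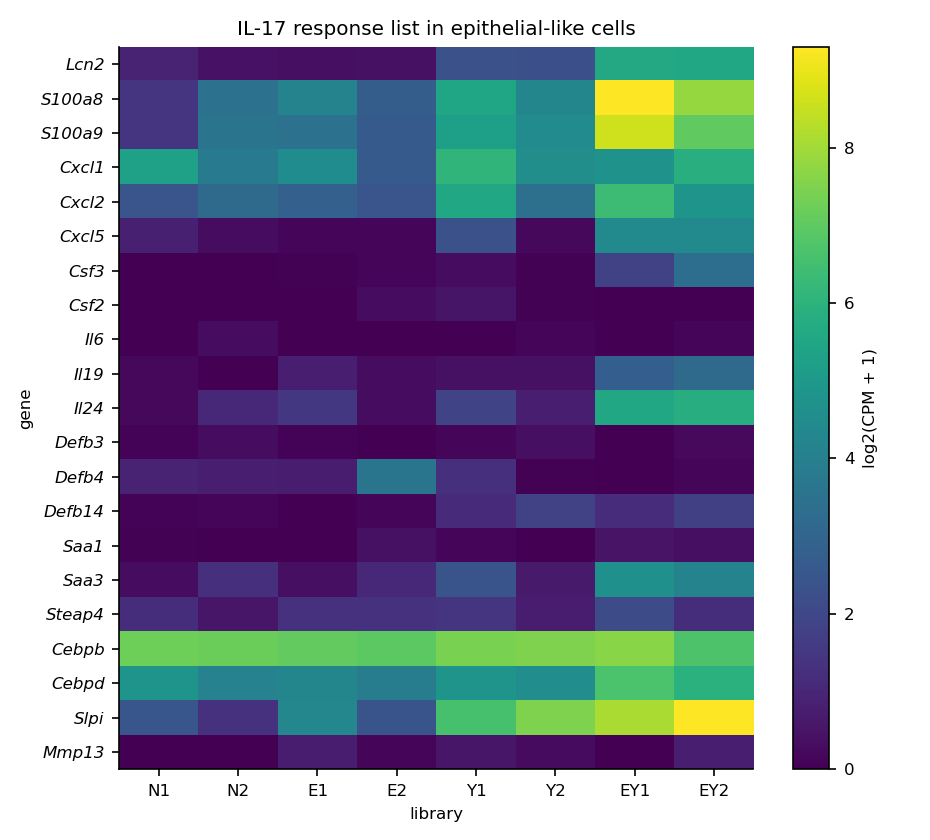
Heat map of 21 genes of the IL-17 response list in epithelial-like cells, as log2(CPM + 1) for each of the 8 libraries. Slpi reaches 629 CPM and S100a8 621 CPM in the EY libraries, Lcn2 and Il24 are high in EY1 and EY2, and Cebpb is at a similar level in all 8.

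S100a8 and S100a9, the chains of the antimicrobial protein calprotectin, rose in the same comparison (YAP effect 4.02 and 3.82 on the log2 scale, edgeR adjusted p = 0.0256 and 0.0262). S100a8 was 1.64 and 10.2 CPM in N, 16.9 and 5.67 in E, 44.4 and 18.3 in Y, and 621 and 223 in EY. Both are abundant in neutrophils, and in neutrophil-like cells of EY1 and EY2 S100a8 stood at 173330 and 194885 CPM, with Slpi at 1836 and 1834 and Lcn2 at 12753 and 20796. The other 8 neutrophil markers summed in epithelial-like cells to 0.446 to 1.30 CPM in N, 0.865 to 1.40 in E, 1.12 to 9.98 in Y and 17.9 to 93.8 in EY, with all 8 detected in Y1 and in EY. In epithelial-like cells Slpi was below S100a8 in EY1, the library with more neutrophil marker RNA, and above it in EY2. Il24 was at 2.42 and 3.31 CPM in neutrophil-like cells of EY1 and EY2. The part of neutrophil RNA in these response genes was not tested.

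On the IL-22 side, Il22ra1, the receptor chain specific to IL-22 and its relatives, was at 0 to 0.635 CPM in epithelial-like cells, and Il10rb, its partner, at 7.07 to 9.63 CPM. Of 10 tested genes of IL-22 signalling and response, 2 rose with active YAP (7.08% of all genes rose) and 3 in EY against N (12% of all genes rose), with medians of 0.12 and 0.17 on the log2 scale. S100a7a, an antimicrobial protein of the psoriasin family, rose in both (YAP effect 5.04, edgeR adjusted p = 0.0101), from 0.243 and 0.707 CPM in N, 0.166 and 2.47 in E to 3.51 and 19.6 in Y and 32.2 and 31.6 in EY. Il22ra2, which encodes the soluble inhibitor of IL-22, rose from at most 0.118 CPM in the 4 libraries without active YAP to 1.09 to 5.52 CPM with it (log2 5.61, edgeR adjusted p = 0.00206); it was named after its values were seen. Bcl3, a nuclear partner of NF-kB, was 20.5 and 23.3 CPM in EY against 6.83 in each N library (log2 1.71, edgeR adjusted p = 0.00438).

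Of 10 genes of the IL-1 receptor chain, 2 rose with active YAP (7.08% of all genes rose), Irak2 and Irak3, a kinase and an inhibitory pseudokinase of the pathway that lay below 20 CPM and were named after their values were seen (log2 0.997 and 1.28, edgeR adjusted p = 0.0484 and 0.0294). In EY against N 3 rose and 1 fell, where 12% of all genes rose and 24.5% were called. Il1rn, the secreted receptor antagonist, was 14.0 and 14.3 CPM in N, 14.4 and 12.3 in E, 13.4 in each Y library, and 32.7 and 21.8 in EY (log2 0.92, edgeR adjusted p = 0.0245). The fall was that of Irak1, the kinase downstream of the receptor (log2 -0.53, edgeR adjusted p = 0.0490).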

How the data were processed

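The authors deposited UMI counts per gene and cell, made with Cell Ranger 5.0.0 on mm10 per the study's methods and the submitters' processing notes, in 8 filtered matrices that were used as deposited. Cells were kept with 1000 to 5500 genes, up to 30000 UMIs and no more than 7% of UMIs from mitochondria, leaving a median of 8809 to 13972 UMIs a cell. Clusters (scanpy 1.11.5, 3000 variable genes, 30 components, 50 neighbours, Leiden resolution 0.3) were named only from marker lists, so names are rebuilt and may differ from the study's. Scrublet called 125 cells (0.496%), too few to rely on, and no doublets were removed in the results above.

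UMIs of a class were summed per library (at least 20 cells) and tested with edgeR 4.0.16 (filterByExpr, TMM scaling, quasi-likelihood test, Benjamini-Hochberg adjustment over all genes, called at an adjusted p under 0.05), once with YAP and E6-E7 as additive terms and once with group means. CPM divides by all UMIs of the class in that library. Shares of cells were tested after thinning to 2000 UMIs (4 to 14 shallower cells a group left out) by two-sided exact permutation. Simulated 4-fold changes were recovered for 87.5% of 200 genes in epithelial-like, 95% in Cd3e-positive and 90% in monocyte- or macrophage-like cells. False calls numbered 5, 11 and 11. The simulation gave each gene the spread usual at its level and not its own. The rates therefore need not hold for genes with a wide spread, such as Il17a, Il17f or Il22 in Cd3e-positive cells. Alternatives were DESeq2 1.42.0, no filter on low counts, other cell filters and gates, doublet removal and each library left out. Members and gene lists were chosen with earlier results of these data known. From each list the text names called genes of at least 20 CPM in a compared group whose libraries do not overlap, up to 4 in each direction, and the text says so where it names another gene. Promoter sequences come from RefSeq, and the sources used here disagree on the version of the droplet kit. The values of 1 transcript of the type 17 lymphocyte list are not reported here.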

Additional observations from a re-analysis of the deposited data

How the results depend on the processing

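Of 892 values of single members under an alternative, 838 kept their side of the threshold, 29 lost a call, 25 gained one and 0 reversed a call, while 68 values that were called neither before nor after changed sign. The YAP effect on Il1r1 in epithelial-like cells kept its call under every alternative run. Without 1 library the members called in epithelial-like cells were 1 to 3 for YAP (558 to 2247 of all genes). They were 0 to 1 for EY against N (159 to 4165) and 0 to 1 for Y against N (0 to 189). In monocyte- or macrophage-like cells they were 0 to 2 for YAP (0 to 613) and for EY against N (1 to 813). In epithelial-like cells DESeq2 called 4 members for YAP (2930 of 13431 genes), 2 for EY against N (3250) and 2 for Y against N (542). It called 1 for YAP in Cd3e-positive (363 of 10161) and 2 for EY against N in monocyte- or macrophage-like cells (821 of 9790). With no filter on low counts these were 4, 3, 3, 2 and 5, with 1 for E6-E7 in epithelial-like and in Cd3e-positive cells. There were also 5 for YAP and 4 for E6-E7 in monocyte- or macrophage-like and 1 for YAP in dendritic- or Langerhans-like cells. For this run and those that follow, the share over all genes is not given. Nothing particular to the members can be read from their counts. Taking every cluster of the epithelial branch left 1 call for YAP and 0 for EY against N, and removing the 5% of cells with the highest Scrublet score gave 1 for Y against N. The cause of these shifts was not tested. Removal by score and the restriction of Cd3e-positive cells to T cell clusters were chosen after seeing the data.

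No share of positive cells had an adjusted p under 0.05 in any of 180 alternatives, while 16 changed direction. The smallest exact permutation p possible was 0.0286, and 12 shares were adjusted together. A single share could therefore not reach such an adjusted p on its own, and nothing is concluded from its absence. Leaving out 1 library moved the difference with minus without active YAP between -3.26 and 3.29 percentage points for Il17a, -5.16 and 1.37 for Il17f, -2.95 and 0.840 for Il22, -0.782 and 1.88 for Il23r, -0.812 and 1.96 for Il1r1 and -5.36 and 0.674 for Trdc. For E6-E7 it was -6.55 to 0.197 for Il17f, -2.26 to 1.67 for Il22, -1.42 to 1.25 for Il23r, -1.99 to 0.780 for Il1r1 and -4.03 to 2.005 for Trdc. Without thinning the E6-E7 difference was 1.67 for Il23r and the YAP difference -0.191 for Il1r1, and over all cells of T-cell-like clusters the YAP difference was 0.304 for Trdc. No paired analysis was possible because the labels give no replicate numbers shared between groups. A library with few cells of a class limits its values, as for the 5 to 11 Trdc cells of Y1, EY1 and EY2.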

Other observations

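An unnamed immune cluster of 126 cells, led by haemoglobin genes, Csf3r and Treml4, held Il23a at 232 CPM in N2 (16 of 47 cells positive) and 241 CPM in E2 (14 of 70 cells), above every library of the monocyte- or macrophage-like class. Over the 55 class sums the genes most like Il23a were Trem1 (r = 0.858), C1rl (0.842), Pla2g7 (0.829), Gm5150 (0.829) and Msrb1 (0.819), a description of sums that share libraries and depth.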
